A study of Mus musculus with 4 samples.

Results

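The cytosolic ribosomal protein genes were followed in mouse liver through 88 probes out of the 20868 different probes on each array. A probe was counted as a member when its description in the scanner files named a ribosomal protein and did not name a mitochondrial protein, a kinase or a pseudogene. Of the 88, 50 probes were placed by description in the large subunit and covered 41 named proteins. In the small subunit 37 were placed and covered 31. The remaining probe met the rule only because its description misspells the word mitochondrial, and this ribosomal protein S7 probe is kept apart from both subunits. The subunit counts include probes described only by a domain, such as the sole probes for L1 and S4E, and weak matches. RefSeq accessions gave a gene symbol to 40 of the probes and the description gave one to 3 more. The other 45 are called by the protein that the files name.

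Mice given trans-10, cis-12 conjugated linoleic acid (CLA) as 1% of their food were set against mice given linoleic acid as 1% of theirs (control). All were males of a polygenic obese line sampled on day 14, and no other treatment or allele is given. Liver RNA of 4 or 5 mice was pooled for each labelling, and each of 4 two-colour Agilent arrays held a CLA pool and a control pool. The CLA pool carried Cy5 (red) on arrays 1 and 2 but Cy3 (green) on arrays 3 and 4. Since the labels leave it unknown whether arrays had pools in common, p-values measure only the spread between arrays, which may be technical.

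The ribosome joins a small subunit, which reads the messenger RNA, to a large subunit, which forms the peptide bond and lets the new protein out. Each subunit holds its own set of proteins on ribosomal RNA, and cells make these proteins in matched amounts. In mammals their messenger RNAs begin with a run of pyrimidines, the 5′ terminal oligopyrimidine tract, through which mTOR signalling sets how strongly they are translated, so translation can change while the RNA level stays the same. The liver spends much of its protein synthesis on secreted plasma proteins, and its ribosomal protein messenger RNAs are abundant.

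The start regions of 3 members that are described below are shown with the longest run of C and T within 20 bases on either side of the listed start in capitals. They were chosen as the member with the most deviant spot, a small subunit member with a low diet effect and one with a high diet effect. The sequences are from RefSeq on GRCm38.p6 and run from 60 bases before the start to 20 after it.
Rpl28, chr7:4792905-4792984, plus strand: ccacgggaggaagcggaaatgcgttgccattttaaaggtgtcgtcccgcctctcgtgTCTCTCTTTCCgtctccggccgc
Rps25, chr9:44407654-44407733, plus strand: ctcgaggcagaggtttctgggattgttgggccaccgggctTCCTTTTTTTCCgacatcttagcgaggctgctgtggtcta
Rps19, chr7:24884532-24884611, plus strand: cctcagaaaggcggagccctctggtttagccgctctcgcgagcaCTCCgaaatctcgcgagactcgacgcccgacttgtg
In Rpl28 the run of 11 bases crossed the listed start, and in Rps19 the longest run was 4 bases. In Rps25 the run of 12 bases lay before the start and reached the edge of the window, beyond which C and T went on. Also looked up were Rpl23, with a low diet effect and a longest run of 3 bases, and Rpsa, with a high diet effect and 5 bases. Of the 43 members with a symbol, 31 had an entry, and 11 of these (35.5%) held a run of at least 8 bases of C and T in this window on the coding strand, taking the first start listed for a gene. The same held for 15.9% of 27025 genes. This describes the listed windows only, since a listed start can be off by some bases.

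Each of the 88 probes was well above background in both diets on all 4 arrays, and 87 were kept on every array. They were among the brightest on the arrays, with a median brightness at percentile 96.9 of the probes tested and 77 of 88 above percentile 75. Over the whole array, 80.3% to 95.5% of spots outside controls were well above background in the CLA channel, against 85.5% to 95.8% in the control channel. Of 10 hepatocyte marker genes, 3 had a tested probe, and all 3 were above background. The number of arrays limits the precision.

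No ribosomal protein gene could be shown to change with CLA. A diet effect, the log2 ratio of CLA over control with the dye effect taken out, was fitted for 20214 probes with limma, and 0 of the 88 members had an adjusted p under 0.05, against 0.0693% of all probes (7 higher and 7 lower with CLA, 0.0346% each). At an unadjusted limma p under 0.05, 6 members stood above 0, against 8.76% of all probes, and 6 below, against 7.17%, which makes 12 of 88 against 15.9% in either direction. The smallest adjusted p of a member was 0.17. Whole liver was sampled, so fewer cells of a type and less RNA per cell cannot be told apart.

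The diet effects of most members lay close to 0, about as those of all probes did. Of the 88 probes, 58 had a diet effect smaller than 0.1 in size, against 62.5% of all probes, and 83 were under 0.2, against 90.8% of all probes. Outside Rpl28 the effects ran between -0.21 and 0.29, with an SD of 0.10 over the probes. With Rpl28 the SD was 0.14, against 0.13 over all probes. The 95% interval had a median half-width of 0.15, and for 87 of the 88 probes the whole interval lay within 0.5 of 0 on the log2 scale. The interval held 0 for 76 probes. In this fit, a larger diet effect is therefore outside the interval of nearly every member. One of 0.1 is within what these arrays leave undecided. The bound holds for this fit only. With each array only centred on its median, the median diet effect of the members was -0.23, with a median SE of 0.11.

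**Figure D1:**
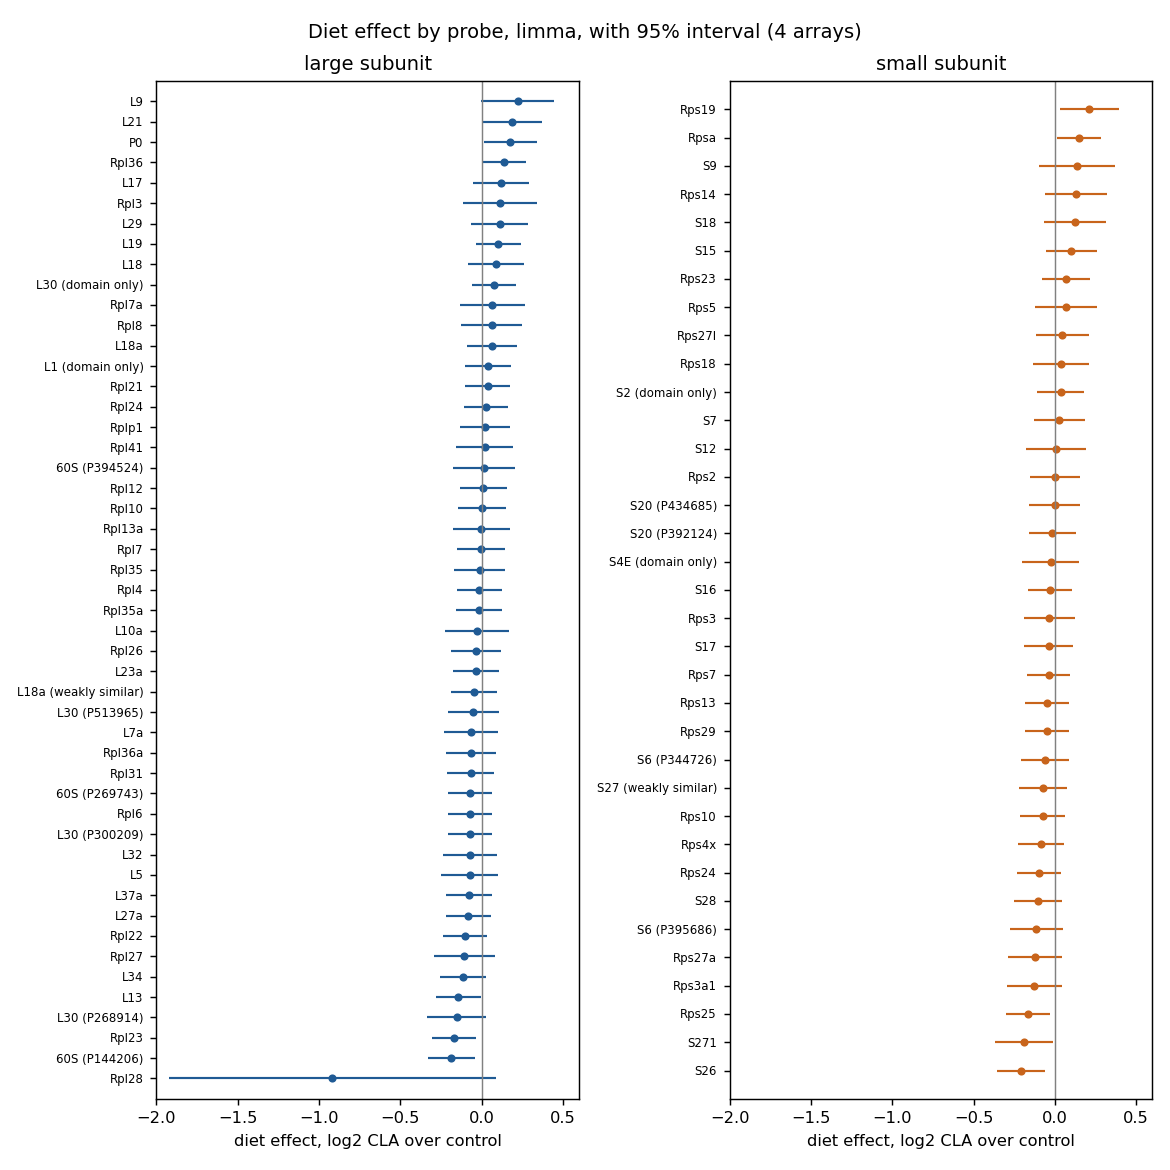
Diet effect of the large subunit probes and the small subunit probes reported here on the horizontal axis (log2 CLA over control, limma, 4 arrays), with a 95% interval as a line. Numbers in brackets tell apart probes of the same name. All probes drawn other than Rpl28 lie between -0.21 and 0.22.

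The medians of the subunits lay close to each other and to that of all probes. Of all members, 37 stood above 0 and 51 below, against 52.3% of all probes above 0. The median diet effect was -0.02 for the large subunit, where 21 of 50 probes stood above 0, and -0.03 for the small subunit, where 15 of 37 did. The median over all probes was 0.01. The differences between these medians are smaller than the SD over arrays of a subunit's median, which was 0.07 for the large and 0.04 for the small subunit. Both subunits were read on the same arrays, so this SD does not measure the spread of the difference between them. Counting only the 78 probes that name a cytosolic protein by number or letter, without domain-only or weak matches, 32 stood above 0.

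As measured here means after loess, which takes out the trend of the ratio with brightness, and before the dye effect was taken out. In these values the ratios turned with the dye orientation. On arrays 1 and 2, with CLA in Cy5, the median log2 CLA over control as measured was -0.14 and -0.12 over the large subunit probes, and -0.12 and -0.11 over the small subunit probes. On arrays 3 and 4, with CLA in Cy3, it was 0.01 and 0.13 for the large and 0.02 and 0.05 for the small subunit. Only 22 and 26 members were above 0 on arrays 1 and 2, against 47 and 57 on arrays 3 and 4. After loess, 38 of the 87 members kept on all arrays had the higher value in Cy3 on every array, against 23.2% of all probes. In 12 it was higher in Cy5 on every array, against 19.9%. Across the 19962 probes measured on all arrays, r of these ratios lay between -0.72 and -0.46 for arrays of opposite dye orientation. It was 0.56 and 0.81 for arrays of the same one. With each array only centred on its median, without loess, the medians over all members were -0.31, -0.38, -0.37 and 0.12 on arrays 1 to 4. Array 3 then lay on the same side of 0 as arrays 1 and 2.

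**Figure D2:**
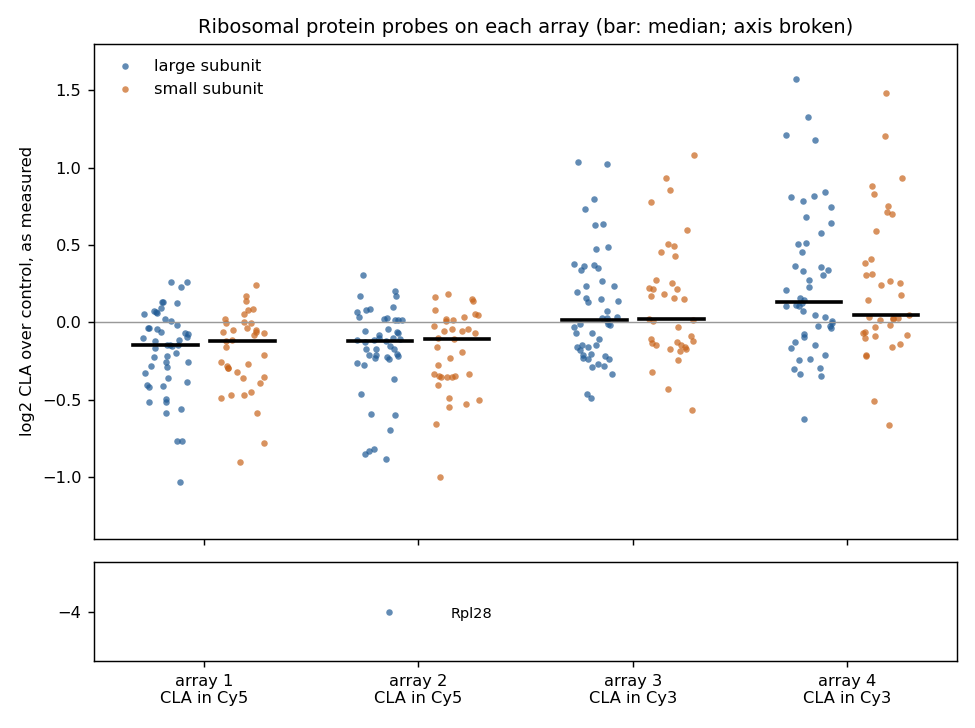
Log2 CLA over control as measured, after loess, on each of the 4 arrays (vertical axis, broken below -1.4). Every large and small subunit probe is a point, and the median is a bar. Both subunits lie mostly below 0 on arrays 1 and 2, and Rpl28 stands at -4.00 on array 2.

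None of the members was higher with CLA on all 4 arrays as measured, against 4.61% of all probes. Lower on all 4 were 4 members, against 4.72% of all probes: Rpl23, Rpl22 and the probes for ribosomal proteins L13 and S28. Rpl23, a protein of the face where the subunits meet, had log2 CLA over control of -0.04, -0.06, -0.34 and -0.24 on arrays 1 to 4. All 4 values were below 0, and those with CLA in Cy3 were further from it. Its diet effect was -0.17 ± 0.06 (SE, n = 4 arrays, limma adjusted p = 0.24). Ribosomal protein L13, also of the large subunit, stood at -0.04, -0.13, -0.24 and -0.17 (diet effect -0.14 ± 0.06, limma adjusted p = 0.29). Rpl22, which binds RNA and in mouse represses the messenger RNA of its own paralogue, stood at -0.06, -0.07, -0.18 and -0.10 (-0.10 ± 0.06). Ribosomal protein S28, a small protein near the exit of the messenger RNA, stood at -0.04, -0.19, -0.17 and -0.02 (-0.10 ± 0.06). None of these 4 passed the test. The sign of the ratio followed the dye orientation on all arrays in 50 of the 87 members.

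Rpl28, a protein of the large subunit, had the lowest diet effect of all members, and 1 spot set it. The log2 CLA over control was -0.58, -4.00, 0.27 and 0.64 on arrays 1 to 4, so array 2 stood alone. The diet effect was -0.92 ± 0.44 (SE, n = 4 arrays, limma adjusted p = 0.34), with a 95% interval between -1.92 and 0.09. Without array 2 it was -0.07 (limma adjusted p = 0.89), and without array 1, which leaves array 2 as the lone array with CLA in Cy5, it was -1.77 (limma adjusted p = 0.0029).

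The mean foreground intensity of the Rpl28 spot, before any correction, was 2240, 2975, 4082 and 3779 in the CLA channel on arrays 1 to 4. In the control channel it was 4697, 65517, 5602 and 2157. The CLA channel on array 2 lay among its values on the other arrays, and the control channel alone was raised. All 47 of 47 pixels of that control spot were saturated, with an SD of 0.78 between pixels, while no pixel of the spot was saturated in the CLA channel or on another array. Its 8 neighbours on array 2 had control intensities of 414 to 769, against 335 to 779 on the other arrays. On array 2, 18 spots were saturated in the control channel, and each of the other 17 had a CLA intensity of at least 38028. Among the control-saturated spots of arrays 1, 3 and 4, numbering 14, 22 and 13, the lowest CLA intensity was 2568, 15425 and 42857. The spot carried no outlier flag and so stayed in the fit. A saturated control channel can only read the light of the spot too low, so the ratio there is a bound on the ratio of light. Whether it is a bound on the ratio of RNA was not tested. The cause of the saturation was not tested.

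**Figure D3:**
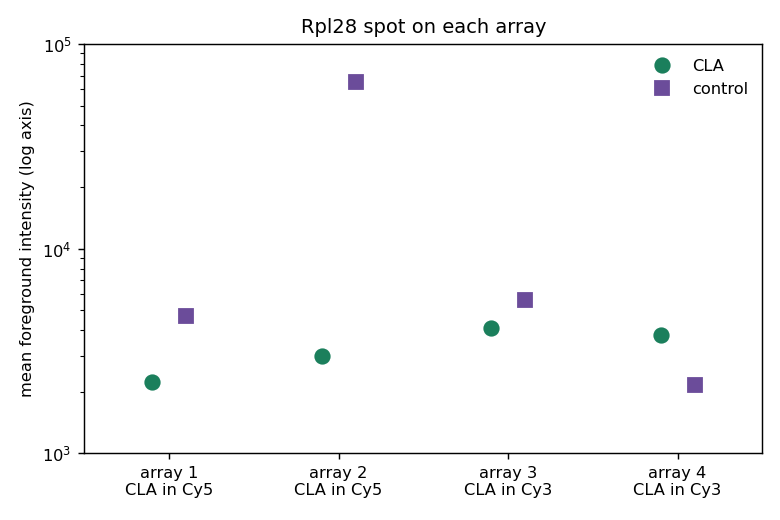
Mean foreground intensity of the Rpl28 spot (vertical axis, log scale) in the CLA channel (circles) and the control channel (squares) on each array. The control value of array 2 is 65517, while all others lie between 2157 and 5602.

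The other large subunit probes with the lowest diet effects were small in size. A probe described only as a 60S ribosomal protein stood at -0.19 ± 0.06 (SE, n = 4 arrays, limma adjusted p = 0.23), with ratios of 0.26, 0.10, -0.49 and -0.62 on arrays 1 to 4. Its sign followed the dye, above 0 with CLA in Cy5 and below 0 with CLA in Cy3. One of the probes for ribosomal protein L30, a protein at the joint between the subunits, stood at -0.15 ± 0.08, with ratios of -0.39, -0.17, 0.15 and -0.21.

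The highest large subunit probe was that for ribosomal protein L9, at 0.22 ± 0.10 (SE, n = 4 arrays, limma adjusted p = 0.32). Its ratios were -1.03, -0.69, 1.03 and 1.57 on arrays 1 to 4. They were negative on both arrays with CLA in Cy5 and positive on both with CLA in Cy3, and its dye effect was -1.08. The same form was seen in ribosomal protein P0, the base of the stalk that recruits translation factors, with ratios of -0.77, -0.88, 1.02 and 1.33 (diet effect 0.17 ± 0.07). It was seen in Rpl3, which lies near the peptidyl transferase centre, with -0.56, -0.83, 0.63 and 1.21 (0.11 ± 0.10). Rpl36 stood at 0.14 ± 0.06, ribosomal protein L17, which lines the exit tunnel, at 0.12 ± 0.08, and a probe for ribosomal protein L21 at 0.19 ± 0.08. The limma adjusted p of these 5 lay between 0.29 and 0.57. That L21 probe is described only as similar to L21 and was dim, with normalized intensities of 111 to 266. The brighter probe named Rpl21 stood at 0.04 ± 0.06.

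Rplp1, an acidic stalk protein that P0 holds, had a diet effect of 0.02 ± 0.07 (SE, n = 4 arrays). Ribosomal protein L10a, which forms the mobile stalk beside the exit site for transfer RNA, stood at -0.03 ± 0.09. Its ratios of -0.07, -0.21, -0.16 and 0.33 set array 4 apart from the rest. Rps27a, which encodes ubiquitin fused to a small subunit protein, stood at -0.12 ± 0.07. Their intervals all held 0.

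Among the small subunit probes with a high diet effect was Rps19, which is mutated in human Diamond-Blackfan anaemia. It had ratios of -0.58, -0.55, 0.77 and 1.21 on arrays 1 to 4 (diet effect 0.21 ± 0.08, SE, n = 4 arrays, limma adjusted p = 0.26). Rpsa, the laminin receptor precursor that sits on the small subunit, had a diet effect of 0.15 ± 0.06, ribosomal protein S9 of 0.14 ± 0.10 and Rps14 of 0.13 ± 0.08. With arrays only centred on their medians, Rps19 stood at 0.0028 and Rpsa at -0.05. In S9 and Rps14 too the ratios were negative with CLA in Cy5 and positive with CLA in Cy3: Rps14 had -0.90, -0.49, 1.08 and 0.83.

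At the low end, ribosomal protein S26, which touches messenger RNA at the exit channel, had ratios of 0.14, 0.14, -0.43 and -0.66 on arrays 1 to 4 and a diet effect of -0.21 ± 0.06 (SE, n = 4 arrays, limma adjusted p = 0.20). Rps25, a protein near the exit site that some viral RNAs need for translation, had ratios of 0.24, 0.16, -0.57 and -0.51 (-0.17 ± 0.06, limma adjusted p = 0.24). These 2 were above 0 with CLA in Cy5 and below it with CLA in Cy3, the opposite form to that of Rps19 and S9. A probe that the files describe as ribosomal protein S271 had ratios of -0.32, 0.05, -0.32 and -0.16 (-0.19 ± 0.08). Rps3a1 stood at -0.13 ± 0.07. The S6 probes, for the protein that the S6 kinases phosphorylate downstream of mTOR, stood at -0.06 ± 0.06 and -0.11 ± 0.07. Rps4x, the X-linked S4 gene, stood at -0.09 ± 0.06, Rps27l, a paralogue of Rps27 that p53 induces, at 0.05 ± 0.07, and a probe described as weakly similar to S27 at -0.07 ± 0.06.

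Probes of the same protein did not always point the same way. There were 10 proteins with several probes when domain-only and weak matches were counted, and in 5 of them the diet effects differed in sign. Without such matches there were 8, and 3 differed in sign. Over the 10 proteins the gaps ran from 0.01 to 0.30, with a median of 0.10, about the size of the spread between different members. Ribosomal protein genes have many processed pseudogenes, and the stretch of a transcript that a probe covers is not stated, so a value may include related transcripts. Spots of a single probe gave a further measure of error: 10 spots of a probe with an S4E domain had an SD of 0.06, 0.15, 0.08 and 0.08 within arrays 1 to 4. That probe was dimmer than most members, with normalized intensities of 155 to 196, so its spread need not be theirs.

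The order of the members by diet effect went with their dye effect. Across 86 probes other than Rpl28 that were measured on all arrays, Pearson's r of diet effect and dye effect (log2 Cy5 over Cy3) was -0.75, against -0.53 across 19962 probes. Members share their arrays and labelling, so the r is a description. Of the 58 members with a dye effect below 0, 32 had a diet effect above 0, while of the 30 with a dye effect above 0, 5 did. The dye effect was larger with CLA in Cy3: relative to the mean profile its slope was 1.18 and 1.30 on arrays 3 and 4, against 0.78 and 0.73 on arrays 1 and 2.

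With the dye effect scaled to the same size on all arrays, r across these 86 probes was 0.06. This scaling moves each probe measured on all arrays by a set share of its dye effect. It thereby takes the slope out over all such probes, so the lower r was largely fixed in advance and is no test. In that version 19 of 88 members stood above 0, against 50.4% of all probes, and the medians of both subunits were -0.05. None was called, and 0 of all 20214 probes were (limma). At an unadjusted p under 0.05, 0 members were above 0 and 6 below, against 4.69% and 4.76% of all probes (9.46% in either direction). Several probes with a diet effect above 0 then stood below it: L9 at -0.04, P0 at -0.07, Rpl3 at -0.08, S9 at -0.11 and Rps14 at -0.07. The dim L21 probe stayed above 0, at 0.08, as did Rpl21, Rps19 and Rpsa, at 0.02, 0.02 and 0.03. Rpl23 stood at -0.14.

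**Figure D4:**
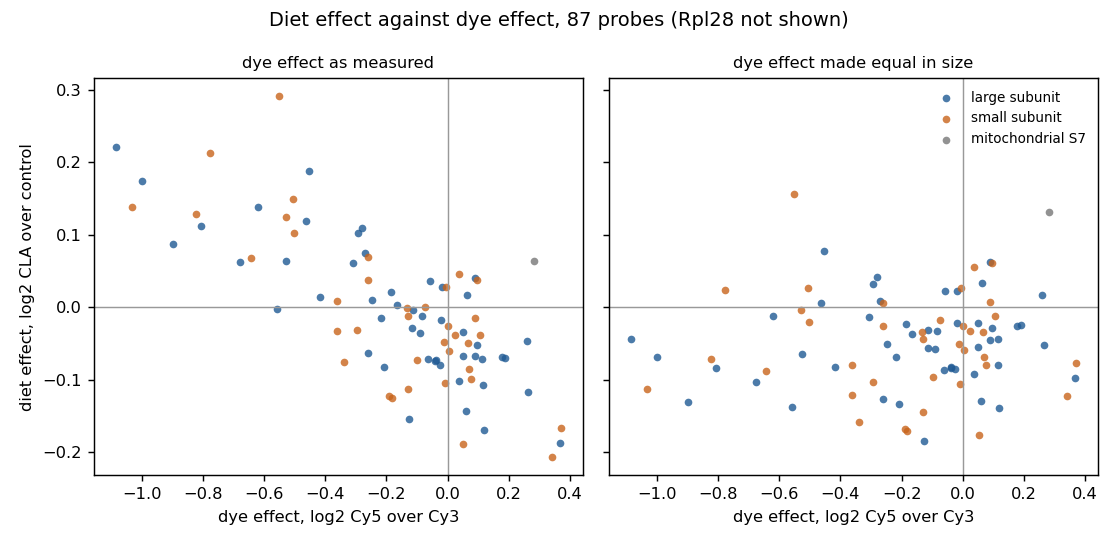
Diet effect (vertical axis, log2 CLA over control) against dye effect (horizontal axis, log2 Cy5 over Cy3) for the 87 members other than Rpl28, with the dye effect as measured (left) and scaled to the same size on all arrays (right). The slope on the left, r = -0.75 over 86 probes, is absent on the right, where r = 0.06. The scaling takes this slope out over all probes by its making.

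The level of the whole group depended on how the arrays were normalized. Loess takes out the trend of the ratio with brightness, and with each array only centred on its median, which leaves that trend in, 7 of 88 members stood above 0, against 48.2% of all probes. The median diet effect was then -0.22 for the large and -0.24 for the small subunit, against -0.01 over all probes. At an unadjusted limma p under 0.05, 1 member was above 0 and 40 were below, against 8.25% and 10.6% of all probes. No member had an adjusted p under 0.05 in this version (smallest 0.051), while 31 of all probes (0.153%) were called higher and 118 (0.584%) lower, 0.737% in all. By array, the median over all members was -0.31, -0.38, -0.37 and 0.12, so array 4 went the other way. The members are bright, and the part of brightness in this shift was not tested.

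**Figure D5:**
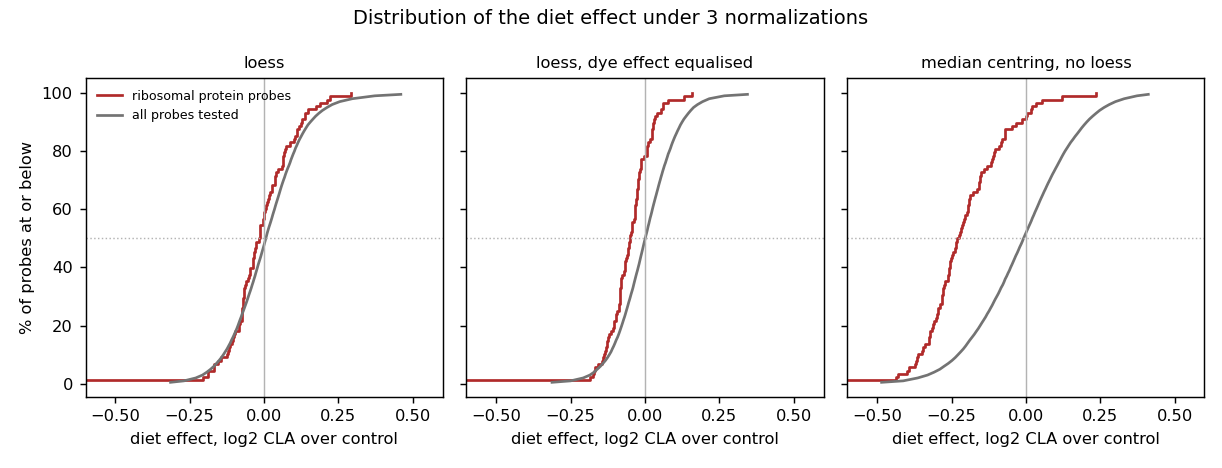
Share of probes (vertical axis, %) at or below a given diet effect (horizontal axis, log2 CLA over control) for the 88 ribosomal protein probes and for all 20214 probes tested, with loess, with loess and the dye effect equalised, and with median centring. The median of the members lies near 0 in the first, near -0.05 in the second and near -0.23 in the third.

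Array 4 also held more signal of exocrine pancreas genes in its CLA sample. Of 10 such marker genes 6 had a tested probe, all above background. Their normalized intensities summed to 1287, 1606, 1782 and 3358 in CLA samples on arrays 1 to 4, against 1231, 1468, 1686 and 1217 in control samples. Without array 4, 25 of the 87 members measured on all arrays stood above 0, with medians of -0.06 in both subunits. With array 4, 37 of all 88 members did. Without array 1, 2 or 3 instead, 36, 41 and 44 members did. Leaving out any 1 array leaves the dye orientations uneven, and array 4 had the largest dye slope, 1.30. The part of pancreas RNA in the member values was not tested.

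The genes that build and drive ribosomes gave no called probe either. Of 37 initiation factors and their regulators, 19 genes had 20 tested probes, with 11 above 0 and a median of 0.00. Eif3c and Eif3a, subunits of the factor that readies the small subunit, stood at 0.28 ± 0.08 and 0.22 ± 0.08 (SE, n = 4 arrays, limma adjusted p = 0.18 and 0.25). A second Eif3c probe stood at 0.09 ± 0.06. Eif3h, of the same factor, stood at 0.16 ± 0.07 and Eif4h, which aids the eIF4A helicase, at -0.13 ± 0.06. After the dye effect was equalised, the Eif3c probes stood at 0.10 and 0.05, Eif3a at 0.15, Eif3h at 0.01 and Eif4h at -0.09. Of the elongation factors and other genes with pyrimidine tracts, 4 of 10 tested probes stood above 0 (median -0.04). Hnrnpa1, an RNA-binding protein, had ratios of 0.04, -0.18, -0.39 and -0.36 and a diet effect of -0.22 ± 0.06 (limma adjusted p = 0.19). Rack1, a scaffold on the small subunit, was below 0 on all arrays, at -0.14, -0.22, -0.03 and -0.03 (-0.11 ± 0.06, limma adjusted p = 0.39). Eef1d and Eef1b2, which recharge elongation factor 1 alpha, stood at 0.13 ± 0.07 and 0.09 ± 0.07. Equalised, Hnrnpa1 stood at -0.18, Rack1 at -0.12, Eef1d at 0.03 and Eef1b2 at -0.04.

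Of 19 tested probes for ribosome assembly, 14 stood above 0 (median 0.05), and after the dye effect was equalised 12 did (median 0.02). Rrp1, which acts in ribosomal RNA processing, stood at 0.22 ± 0.07 (SE, n = 4 arrays, limma adjusted p = 0.19). Nucleolin (Ncl) stood at 0.18 ± 0.08, Ubtf, a transcription factor of RNA polymerase I, at 0.13 ± 0.06 and Rrs1 at 0.11 ± 0.06. Equalised, Rrp1 stood at 0.05, Ncl and Ubtf at 0.06 each and Rrs1 at 0.07. Among 9 tested probes for the control of translation, 6 stood above 0 (median 0.02). Mtor, the kinase that governs translation of pyrimidine-tract messenger RNAs, had ratios of -0.04, 0.10, 0.45 and 0.42 (diet effect 0.23 ± 0.06, limma adjusted p = 0.16) and stood at 0.18 ± 0.06 after the dye effect was equalised. Eif2ak3, a kinase that halts initiation under endoplasmic reticulum stress, stood at 0.16 ± 0.08, Eef2k, which inhibits elongation factor 2, at 0.14 ± 0.09, and Rheb, which activates mTOR, at -0.13 ± 0.06. Equalised, these 3 stood at 0.15, 0.10 and -0.01.

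The authors' deposited table holds 775 probes as significant in liver, and 1 of them is a ribosomal protein probe, that for S15. This is 1.14% of the members, against 3.71% of all probes on the array. The authors' deposited table gives it a ratio of 1.54 with p = 0.00012. The deposited log ratios of this probe, read as CLA over control, came to 0.82 and 0.70 on arrays 1 and 2 as linear ratios and 1.45 and 1.65 on arrays 3 and 4. The 2 orientations thus lay on opposite sides of 1, and the geometric mean was 1.55 over arrays 3 and 4 and 1.08 over all 4. Over all 775 probes, the ratio in the authors' deposited table lay within 0.02 (log10) of the mean of arrays 3 and 4 for 67.6%, of arrays 1 and 2 for 7.48% and of all 4 arrays for 4.90%. The test and the arrays behind that table are not stated. In the limma fit the diet effect of S15 was 0.10 ± 0.07 (SE, n = 4 arrays, limma adjusted p = 0.46).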

How the data were processed

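The authors deposited Agilent Feature Extraction output, per the file headers, with mean foreground and median background intensity in both channels of 22393 spots and flags for outliers, saturation and background. Their deposited series matrix gives log10 ratios of unstated making, all with CLA over control when compared with the scanner's ratios. The authors' deposited table holds for 775 probes a ratio, a p-value of unstated test and a score (the fold change with a sign), and it was used only where named. No per-sample column stayed unmapped.

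Foreground intensities were corrected with normexp (offset 50), normalized by loess with 1075 control spots at weight 0, and spots of a probe were averaged after outlier-flagged spots were set missing (limma 3.58.1, R 4.3.3). Probes entered the test when 1 diet or both reached the scanner's mark for signal well above background on 2 or more arrays and 3 or more arrays had a value. The moderated test of limma was run on log2 ratios, with the dye as intercept and diet coded by orientation, and Benjamini-Hochberg adjustment over 20214 probes (threshold 0.05). It was tested on simulated data, with larger effects than those of the members and a dye effect of equal size on all arrays. That run therefore does not cover effects as small as those of the members. Medians over a subunit cover probes measured on all arrays.

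The members, the lists and the rule for naming probes were chosen with earlier results of these data known. The rule named, in each subunit, the 5 highest and the 5 lowest members, the 5 with the widest residuals, a preset set by role, and up to 4 probes by p of each translation list. S15, S28, Rpl21 and Rpl26 are outside it and were chosen after their values were seen. Some members that the rule named are not reported singly here. Symbols and start sequences come from RefSeq tables of GRCm38.p6, and the files name no genome build. Alternatives covered background correction, normalization, the dye term, weights, filters, the authors' values and leaving out each array. Marker lists of macrophages and leukocytes, endothelial and stellate cells and erythroid cells had medians of -0.03, -0.05 and -0.24, with 0 called.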

Additional observations from a re-analysis of the deposited data

Results flagged for a closer look

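Of 91 groups of 4 arrays tested for an array far from the others, 2 stood out. The rule marks about 1 in 20 groups of 4 values drawn from the same normal distribution. Ratios that turn with the dye orientation are not such values, so that rate need not hold here. Rpl26, a protein of the large subunit that in human cells also binds p53 messenger RNA, had log2 CLA over control of 0.02, 0.02, -0.22 and 0.05 on arrays 1 to 4, so array 3 lay apart from 3 closely placed values. Its diet effect was -0.03 ± 0.07 (SE, n = 4 arrays, limma adjusted p = 0.82). The gap was 0.88 of the whole range, and the range itself is small.

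The normalized control intensity of Rpl28 was 3606, 52410, 4102 and 2054 on arrays 1 to 4, so array 2 lay far above the others, with a gap of 0.96 of the range. In the CLA channel the normalized intensities were 2405, 3282, 4932 and 3198. The spot's saturation is described above, and its cause was not tested.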

How the results depend on the processing

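No member was called under any alternative that kept all 4 arrays, and without an array 0 to 1 was called lower: Rpl28, without array 1. Over all probes the count of calls was 0 higher and 0 lower with equal spread between arrays, no dye term, an equalised dye effect, no background subtraction, a normexp offset of 10, processed signals of the scanner or the authors' series matrix. It was 31 higher and 118 lower with median centring, 1 higher and 0 lower with flagged spots kept, and 2 to 51 higher and 0 to 20 lower without 1 array, fewest without array 2. Of the 88 members, 7 stood above 0 with median centring, 24 with equal spread, 19 with the dye effect equalised, and 25 to 44 without 1 array. The median was -0.22 and -0.24 for the large and small subunit with median centring. Without 1 array it was -0.06 to 0.02 and -0.06 to -0.01. With median centring, 4 of 20 initiation probes (median -0.11) and 1 of 10 elongation and pyrimidine-tract probes (median -0.23) stood above 0, and the assembly median was 0.012. Without 1 array, the initiation median was 0.0085 to 0.065 and the assembly median 0.0096 to 0.054.

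Named probes turned sign, with no call on either side. With median centring, Rpl3 stood at -0.11, Rpl36 at -0.080, Rplp1 at -0.23, Rps14 at -0.090, Rps27l at -0.19, Rpsa at -0.048, L17 at -0.10, L9 at -0.00035, P0 at -0.014, S9 at -0.071, Eef1d at -0.056 and Eef1b2 at -0.13. With equal spread, Rpl3 stood at -0.019, Rplp1 at -0.012, Rps14 at -0.049, P0 at -0.000446, S9 at -0.038 and Eef1b2 at -0.017. With the dye effect equalised, Rpl3 stood at -0.084, Rpl36 at -0.013, Rplp1 at -0.024, Rps14 at -0.072, L9 at -0.044, P0 at -0.069, S9 at -0.11 and Eef1b2 at -0.045. Without 1 array, Rpl3 ran from -0.033 to 0.26, Rplp1 from -0.046 to 0.088, Rps27l from -0.029 to 0.12, L10a from -0.15 to 0.094 and S9 from -0.018 to 0.29. The causes were not tested. A stricter choice of members and the large subunit without Rpl28, both chosen after seeing the data, gave a large subunit median of -0.02. Every ratio pairs the CLA pool with the control pool of the same array, and the labels give no other pairing of pools across diets.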
